A study of Drosophila melanogaster with 6 samples.

Results

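The aminoacyl-tRNA synthetase genes of Drosophila melanogaster were compared between 2 established cell lines, SL2 and Kc167. The genes were taken by their current symbols: an amino acid code followed by RS for a cytosolic enzyme, the same with -m for a mitochondrial one, or GluProRS for the fused enzyme. This pattern fitted 33 genes of the RefSeq table, 18 cytosolic and 15 mitochondrial, and 6 of them had clones on the arrays with values on all 6 arrays. They were the cytosolic TyrRS, LeuRS, CysRS and IleRS and the mitochondrial TrpRS-m and LeuRS-m, out of 7201 features tested (2216 named genes and 4985 clones with no gene name here). The other 27 genes were not analysed here, and neither was 1 clone whose annotation lists a synthetase together with another gene.

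SL2 cells were untreated and grew in CCM3 medium, and Kc167 cells were untreated and grew in a Schneider medium with 5% serum. Both media held 20 µg/mL gentamicin and both cultures were dense and kept at 22 °C, so the line and its medium cannot be told apart. On each spotted cDNA array, dye-labelled cDNA of the lines competed for the same spots. On 3 arrays the Kc167 cDNA was labelled with Cy5 and that of SL2 with Cy3 (the Kc167-Cy5 arrays), and on 3 flipped arrays it was the reverse. Arrays of the same number were averaged over both dye orientations, which gave n = 3 replicates. The labels do not say that replicates are separate cultures, so p-values measure a spread that may be technical.

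Every value below is a log2 ratio of SL2 over Kc167 or a difference between such ratios. That direction is likely, since the titles put SL2 first, but it is not stated, and neither is the base of the logarithm, which was taken as 2. A positive ratio is called the SL2 side and a negative ratio the Kc167 side; if the ratio was formed the other way, all signs turn together. The ratios hold no level, so whether a line expresses a gene at all, or keeps the markers of its cell type, cannot be read from them. A higher ratio also does not separate more RNA per cell from more expressing cells.

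Aminoacyl-tRNA synthetases join each amino acid to its own tRNA, the step at which the genetic code is read into protein. The cytosolic enzymes supply the ribosomes of the cytosol. Separate enzymes, encoded in the nucleus and imported, charge the tRNAs of mitochondria for the few respiratory chain proteins made there. The enzymes of the 6 genes belong to class I, which share one type of catalytic fold; the cytosolic leucine and isoleucine enzymes also carry a domain that removes wrongly attached amino acids. In animal cells these 2 belong to a complex of several synthetases, while the tyrosine and cysteine enzymes are found outside it. Every cell that makes protein depends on the cytosolic enzymes.

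The synthetase genes did not move as a block. The genes on the SL2 side were TyrRS and LeuRS, those on the Kc167 side were LeuRS-m and IleRS, and CysRS and TrpRS-m did not pass. Thus 4 of 6 genes, or 66.7%, differed between the lines by limma with an adjusted p under 0.05, against 60.2% of all 7201 features, which is close to the background. The SL2 side held 2 of 6 synthetase genes and 28.4% of all features, and the Kc167 side held 2 of 6 synthetase genes and 31.8% of all features. The median ratio of the 6 genes was -0.003, and that of all features was -0.02. Only LeuRS-m differed by at least 2-fold, a size reached by 6.53% of all features. A single sign on all 6 arrays was seen for 3 of 6 synthetase genes (TyrRS, IleRS and LeuRS-m) and for 47.2% of all features.

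**Figure D1:**
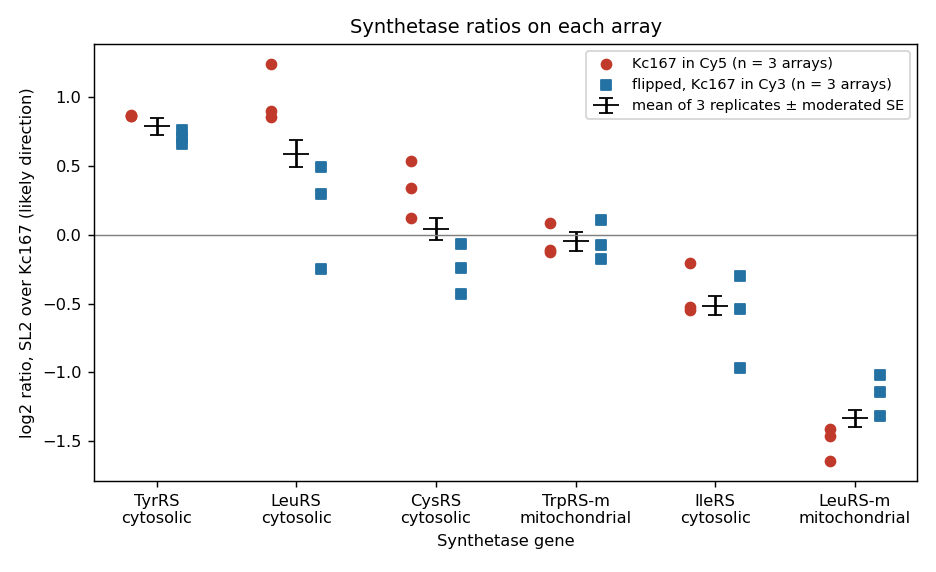
Log2 ratio of SL2 over Kc167 for the 6 synthetase genes on every array, with circles for the Kc167-Cy5 arrays, squares for the flipped arrays, and bars for the mean of 3 replicates ± moderated SE. TyrRS lies above 0 and IleRS and LeuRS-m below 0 on all 6 arrays, while LeuRS and CysRS lie higher on the Kc167-Cy5 arrays than on the flipped arrays.

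TyrRS, which charges the tyrosine tRNA of the cytosol, was the synthetase gene furthest on the SL2 side and the steadiest. Its ratio was 0.87, 0.87 and 0.87 on the Kc167-Cy5 arrays and 0.76, 0.70 and 0.66 on the flipped arrays. All 6 arrays were high, and the orientations did not overlap, with the flipped arrays a little lower. The mean was 0.79 ± 0.06 (SE, n = 3), or 1.73-fold, with limma adjusted p = 4.3e-06. It passed in each dye orientation alone, with means of 0.87 and 0.71. The replicate means were 0.81, 0.79 and 0.76, with an SD of 0.03. Of the named genes, 94.8% had a lower ratio, and TyrRS ranked 116 from the top.

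LeuRS, the cytosolic leucine enzyme, was also on the SL2 side, but its size depended on the dye orientation. Its ratio was 0.86, 1.24 and 0.90 on the Kc167-Cy5 arrays and -0.25, 0.50 and 0.30 on the flipped arrays. The orientations did not overlap, and the flipped array of replicate 1 alone was below 0. The mean was 0.59 ± 0.10 (SE, n = 3), or 1.51-fold, with limma adjusted p = 0.00055. In the Kc167-Cy5 arrays alone it was 1.0 (limma adjusted p = 0.00012), and in the flipped arrays alone it was 0.18 and did not pass (limma adjusted p = 0.31). The replicate means of 0.30, 0.87 and 0.60 had an SD of 0.28, the widest of the 6 genes. With each feature's own variance, not moderated, LeuRS did not pass (adjusted p = 0.13), in a setting where 26.7% of all features passed. Leaving out the flipped array of replicate 1 gave 0.70 ± 0.08, in a fit of single arrays with a dye term in place of replicate means. There 4 of the 6 genes still passed, against 60.3% of all features.

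LeuRS-m, the mitochondrial leucine enzyme, had the largest ratio of the 6 genes and was on the Kc167 side. Its ratio was -1.41, -1.47 and -1.65 on the Kc167-Cy5 arrays and -1.32, -1.15 and -1.02 on the flipped arrays. All 6 arrays were far below 0, and the orientations did not overlap, with the flipped arrays nearer to 0. The mean was -1.34 ± 0.06 (SE, n = 3), or 2.52-fold, with limma adjusted p = 1.3e-07. It passed in each orientation alone, at -1.51 and -1.16. Only 1.58% of the named genes had a lower ratio, and it ranked 2181 of 2216.

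IleRS, the cytosolic isoleucine enzyme, was the other synthetase gene on the Kc167 side. Its ratio was -0.20, -0.52 and -0.55 on the Kc167-Cy5 arrays and -0.97, -0.54 and -0.30 on the flipped arrays. All 6 arrays were below 0, and the orientations overlapped widely. The mean was -0.51 ± 0.07 (SE, n = 3), or 1.43-fold, with limma adjusted p = 0.00011. The array furthest from 0 was the flipped array of replicate 1. Without it the mean was -0.42 ± 0.08 (limma adjusted p = 0.0012), in a fit of single arrays with a dye term in place of replicate means. It passed in each orientation alone, at -0.42 and -0.61.

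CysRS, the cytosolic cysteine enzyme, had ratios of opposite sign in the dye orientations. It had 0.12, 0.53 and 0.34 on the Kc167-Cy5 arrays and -0.43, -0.24 and -0.07 on the flipped arrays. No array of one orientation reached the range of the other. The mean was 0.04 ± 0.08 (SE, n = 3) and did not pass (limma adjusted p = 0.66); its 95% interval ran from -0.13 to 0.22. The Kc167-Cy5 arrays alone gave 0.33 (limma adjusted p = 0.027) and the flipped arrays alone gave -0.25 (limma adjusted p = 0.068). The direction of CysRS between the lines was therefore not settled by these arrays.

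TrpRS-m, which charges the mitochondrial tryptophan tRNA, was the synthetase gene with more than 1 clone. Its ratio was -0.12, 0.09 and -0.11 on the Kc167-Cy5 arrays and 0.11, -0.07 and -0.18 on the flipped arrays. Arrays of both orientations lay on both sides of 0 and overlapped. The mean was -0.05 ± 0.07 (SE, n = 3) and did not pass (limma adjusted p = 0.56), with a 95% interval from -0.20 to 0.10. Its 3 clones had means of -0.05 ± 0.07, -0.21 ± 0.07 and 0.12 ± 0.08. With every clone tested by itself, the second of these passed (limma adjusted p = 0.019) and the other 2 did not. The clone that passed was negative on all 6 arrays, between -0.35 and -0.09.

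By their mean ratio in these data, the 6 genes followed each other in the order TyrRS, LeuRS, CysRS, TrpRS-m, IleRS and LeuRS-m. Each mean difference between neighbours in that order is therefore positive by construction. Differences between neighbours in that order were taken within each replicate, and 3 values cannot give an exact two-sided sign-flip p below 0.25. TyrRS minus LeuRS was 0.20 ± 0.30 (SD, n = 3), less than its spread, and TyrRS was the higher on 4 of 6 arrays. CysRS minus TrpRS-m was 0.09 ± 0.22, also within its spread. LeuRS minus CysRS was 0.55 ± 0.15, TrpRS-m minus IleRS was 0.47 ± 0.16, and IleRS minus LeuRS-m was 0.82 ± 0.08. These 3 differences exceeded their spread and had the same sign on all 6 arrays, but the order was taken from the same values.

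The 2 enzymes for leucine lay far apart. LeuRS minus LeuRS-m was 1.67, 2.18 and 1.93 in the replicates, with a mean of 1.93 ± 0.25 (SD, n = 3; exact sign-flip p = 0.25, the smallest possible). The difference was positive on all 6 arrays, between 1.07 and 2.71. It averaged 2.51 on the Kc167-Cy5 arrays and 1.34 on the flipped arrays. Among the cytosolic enzymes, TyrRS minus IleRS was 1.30 ± 0.11 and LeuRS minus IleRS was 1.11 ± 0.27. Both were positive on all 6 arrays, but these pairs were picked with the order of the genes known. TyrRS was above 0 and IleRS below 0 on all 6 arrays, so the cytosolic synthetase genes did not all share 1 direction. The 2 mitochondrial enzymes differed as well, with LeuRS-m far below 0 and TrpRS-m near it.

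**Figure D2:**
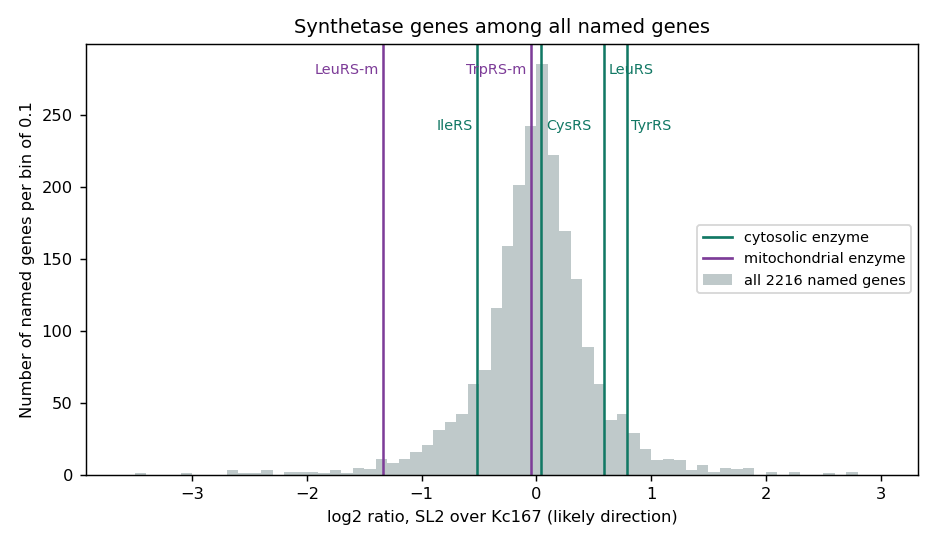
Number of named genes per bin of 0.1 of the mean log2 ratio of SL2 over Kc167 (grey, 2216 genes), with a line for each synthetase gene, green for cytosolic and purple for mitochondrial enzymes. TyrRS and LeuRS lie on the right flank, CysRS and TrpRS-m near the peak, IleRS on the left flank and LeuRS-m in the left tail.

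Each clone was printed as 2 spots, which gives a view of the measuring error within an array. The spots of TyrRS differed by a median of 0.05 over the 6 arrays, a smaller gap than that of 96.9% of all clones. Those of LeuRS-m differed by 0.08, and those of IleRS by 0.10. The spots of LeuRS differed by 0.24, more than 76.8% of all clones, and those of CysRS by 0.19. The 3 clones of TrpRS-m had gaps of 0.15, 0.15 and 0.23. The widest single gap of TyrRS, 0.25, was on the flipped array of replicate 3. On the same array the spots of IleRS had -0.57 and -0.03, a gap of 0.54. The widest single gaps of LeuRS and of a TrpRS-m clone were similar, at 0.53 and 0.55. With the first spots alone and the second spots alone, LeuRS had 0.66 and 0.52, IleRS -0.51 and -0.52, and LeuRS-m -1.35 and -1.32. The calls of all 6 genes were the same with either spot alone.

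**Figure D3:**
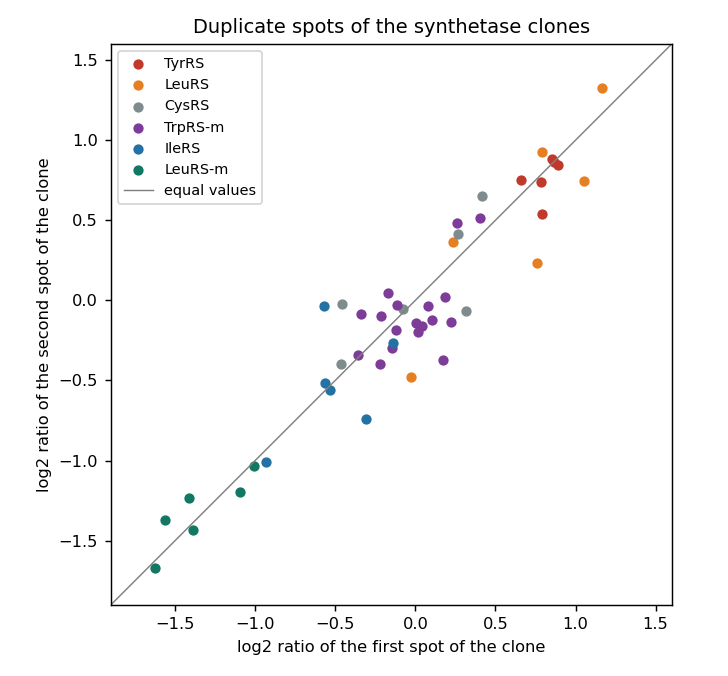
Log2 ratio of the second spot against the first spot of each synthetase clone on each of 6 arrays, coloured by gene, with the line of equal values. TyrRS and LeuRS-m form separate groups at the 2 ends, and the points of LeuRS spread most on the upper side. Points far off the line include those of IleRS at -0.57 and -0.03, LeuRS at 0.76 and 0.23, and TrpRS-m at 0.18 and -0.38.

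The ratio of a gene should not depend on which dye a line carries, so each ratio was also compared between the orientations, as Kc167 in Cy5 minus flipped. LeuRS and CysRS differed, which is 2 of 6 genes against 12.2% of all features by limma. The difference was 0.82 ± 0.19 for LeuRS (SE, 3 arrays against 3; limma adjusted p = 0.025) and 0.58 ± 0.15 for CysRS (limma adjusted p = 0.034). The gap of LeuRS was larger than that of 97.5% of features and the gap of CysRS larger than that of 91.1%. LeuRS-m had -0.35 ± 0.13 (limma adjusted p = 0.11), the opposite sign, and did not pass. TyrRS had 0.16 ± 0.11, IleRS 0.18 ± 0.18 and TrpRS-m -0.001 ± 0.13, and none of them passed. Not passing does not show that a gap was absent. On simulated data, with 50 features per size, the same test called 0% of gaps of 0.25 and 18% of gaps of 0.5. By their ranges, 4 of 6 genes (TyrRS, LeuRS, CysRS and LeuRS-m) had orientations without overlap, against 36.1% of all features. The flipped array of replicate 1 had the lowest correlations with the other orientation, 0.64 to 0.73 over all features. Without it the gap was 0.60 for LeuRS and 0.49 for CysRS, with the same sign but not passing (limma adjusted p = 0.061 and 0.091). In that setting 4.11% of all features passed. With all arrays of any 1 replicate left out, the gap was 0.67 to 0.93 for LeuRS and 0.48 to 0.67 for CysRS. Neither passed with the fewer arrays (lowest limma adjusted p = 0.054 and 0.074), where 0.68% to 3.72% of all features passed. Cy5 was scanned at a laser power of 95 and a gain of 60 where Kc167 carried it and at 100 and 66 on the flipped arrays, so dye, line and scan setting cannot be told apart within an orientation.

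**Figure D4:**
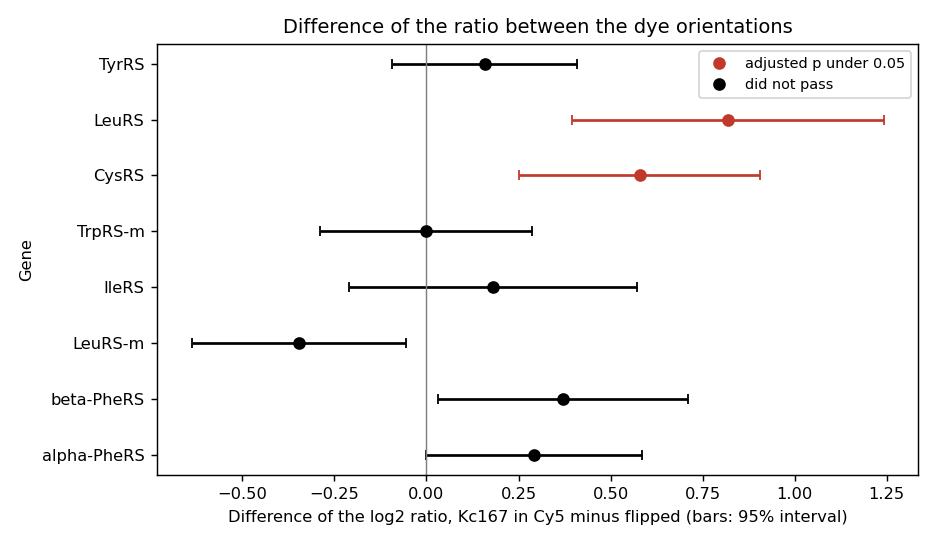
Difference of the log2 ratio between the Kc167-Cy5 arrays and the flipped arrays (points, with 95% intervals) for the 6 synthetase genes and the 2 subunit genes of the cytosolic phenylalanine enzyme. The intervals of LeuRS and CysRS lie well above 0 and pass after adjustment (red), and that of TrpRS-m is centred on 0. Those of LeuRS-m (below 0), beta-PheRS and alpha-PheRS (above 0, alpha-PheRS only just) also exclude 0 but do not pass after adjustment.

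Among close partners of tRNA charging, the genes that differed were on the SL2 side. In a list of 12 such genes, 4 were measured: 3 were on the SL2 side (75%, against 28.4% of all features) and 1 did not pass, with a median ratio of 0.38. The cytosolic phenylalanine enzyme is made of 2 kinds of subunit, whose symbols fall outside the name pattern. The gene of its beta subunit, beta-PheRS, had 0.56, 0.69 and 0.67 on the Kc167-Cy5 arrays and -0.06, 0.46 and 0.42 on the flipped arrays, with a mean of 0.46 ± 0.08 (limma adjusted p = 0.00072). The gene of its alpha subunit, alpha-PheRS, had 0.36, 0.62 and 0.41 on the Kc167-Cy5 arrays and 0.02, 0.19 and 0.30 on the flipped arrays, with a mean of 0.32 ± 0.07 (limma adjusted p = 0.0032); on 2 of the Kc167-Cy5 arrays it rests on a single spot. The subunit genes had the same direction, and beta minus alpha was 0.14 ± 0.07 (SD, n = 3). Like LeuRS and CysRS, both were lower on the flipped arrays with no overlap, but their orientation differences did not pass (limma adjusted p = 0.13 and 0.16). Slimp, an insect relative of the seryl-tRNA synthetase that acts in mitochondria, had 0.44 ± 0.07 (limma adjusted p = 0.00025). GatA, a subunit of the enzyme that completes glutamine charging in mitochondria, had -0.17 ± 0.08 and did not pass.

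Of the other genes of protein synthesis in mitochondria, 3 differed between the lines, on the opposite side to LeuRS-m. Of 91 listed, 4 were measured, and those 3, against 28.4% of all features on the SL2 side, were the ribosomal protein genes mRpL16 (1.30 ± 0.07), mRpL54 (1.12 ± 0.07) and mRpL13 (0.38 ± 0.08), all past limma's threshold. On the Kc167-Cy5 array of replicate 2, mRpL13 was below 0, at -0.08. The fourth, bsf, which encodes an RNA-binding protein of mitochondria, had -0.12 ± 0.12 and did not pass. Its arrays had both signs, from -1.08 on the flipped array of replicate 1 to 0.37 on the Kc167-Cy5 array of replicate 2. The median of the list was 0.75, against -1.34 for LeuRS-m and -0.05 for TrpRS-m. The difference between LeuRS-m and this list was not tested. Of 13 listed genes of elongation and release, pelo, which acts in ribosome rescue, had 0.93 ± 0.07 and the release factor gene eRF1 had 0.27 ± 0.06, and no other was measured.

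Genes that shape tRNAs before charging went both ways. All 7 measured of 48 differed by limma, against 60.2% of all features, 4 toward SL2 and 3 toward Kc167. Tgt, which encodes a subunit of the enzyme that inserts queuine into tRNAs, including that for tyrosine, had -1.17 ± 0.07 (limma adjusted p = 4.6e-07), on the opposite side to TyrRS. RtcB, the gene of the tRNA ligase, had -0.44 ± 0.08, and Elp6, the gene of an Elongator subunit, had 0.35 ± 0.09. Elp6 was below 0 on 1 array, at -0.22.

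Measured genes that sense or transport amino acids went both ways, more often to the Kc167 side. Of 24 genes of amino acid sensing, 11 were measured, with 2 on the SL2 side, 8 on that of Kc167 and a median of -0.33, where 28.4% and 31.8% of all features lay on those sides and the median of all features was -0.02. The lists themselves were not tested. Lst8, a subunit gene of the growth kinase complexes around TOR, such as TORC1, had -0.94 ± 0.07, and Tsc1, the gene of a TORC1 inhibitor, had -0.83 ± 0.09. Iml1, a gene of the GATOR1 complex that restrains TORC1 when amino acids are scarce, had -0.64 ± 0.07, and its partners Nprl3 and Nprl2 had -0.57 ± 0.07 and -0.29 ± 0.07. The opposing GATOR2 complex had Nup44A (0.49 ± 0.08) and Wdr24 (0.41 ± 0.09) on the SL2 side and mio (0.10 ± 0.07) not passing. The transcription factor gene crc, the fly ATF4, which in mammals drives synthetase genes when amino acids are short, had -0.36 ± 0.08 (limma adjusted p = 0.0038), on the side of IleRS and LeuRS-m and opposite to TyrRS and LeuRS. The 2 complexes and crc were named after their values were seen, and a link between crc and the synthetase ratios was not tested. Of 17 transporter genes, 5 were measured: 1 was on the SL2 side and 3 on that of Kc167, against the same 28.4% and 31.8%. They included Eaat2 (-0.88 ± 0.07), a transporter gene of acidic amino acids, JhI-21 (-0.59 ± 0.08), a carrier of neutral amino acids, and gb (0.36 ± 0.07), a subunit of an exchanger. In the list of leucine, isoleucine and tyrosine metabolism only Dbct of 16 genes was measured, with -0.14 ± 0.07, and it did not pass.

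**Figure D5:**
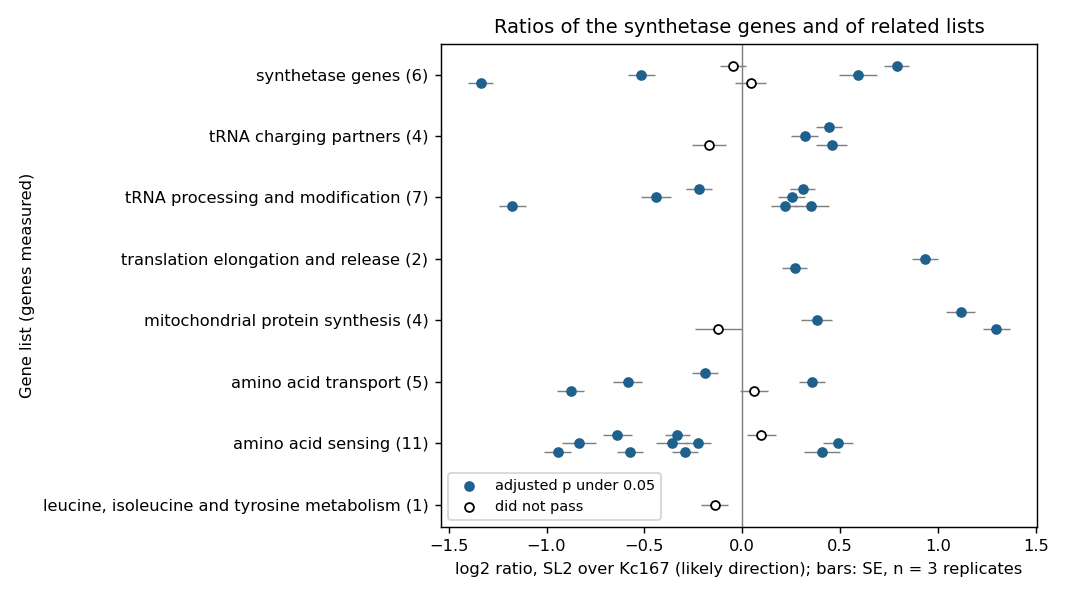
Mean log2 ratio of SL2 over Kc167 (points, ± SE of 3 replicates) for the synthetase genes and 7 lists of related genes, with the number measured in brackets, filled where the adjusted p was under 0.05 and open where it was not. The synthetase genes span from -1.34 to 0.79, the partners and mitochondrial genes lie mostly above 0, and the amino acid sensing genes mostly below 0.

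Marker genes gave no common direction. All 4 measured hemocyte markers differed by limma, against 60.2% of all features: Pxn (1.65 ± 0.10) and NimC1 (0.80 ± 0.07) were on the SL2 side, and Ppn (-1.14 ± 0.06) and Pvr (-0.43 ± 0.07) on that of Kc167. So did the neuron and glia markers moody (0.99 ± 0.10), nSyb (0.27 ± 0.07) and nrv2 (-0.67 ± 0.11) and the muscle marker Act88F (0.42 ± 0.09). Pxn and Act88F also differed between the orientations, by 1.02 and -0.67 (limma adjusted p = 0.019 and 0.039). The fat body markers Fbp2 (0.14 ± 0.07), apolpp (0.08 ± 0.09) and Lpin (-0.07 ± 0.09) did not pass. Of the other measured genes listed for blood cells, Tep4 (-0.66 ± 0.06) passed and cher (0.17 ± 0.08) did not. Their part in the synthetase ratios was not tested.

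The named genes most like each synthetase gene were chosen by the smallest root mean square difference of the ratios over the 6 arrays, so that a shared pattern follows from the choice. Nearest to TyrRS were vib (0.07) and CG31676 (0.08), and nearest to LeuRS, at a wider distance, were puc (0.19) and gammaTub37C (0.20). CysRS had Hrd3 (0.09) and Obp59a (0.11). TrpRS-m had Mlc-c (0.06) and odd (0.07), IleRS had CG5726 (0.09) and Nagk (0.13), and LeuRS-m had pod1 (0.15) and cue (0.19). Of the genes nearest to LeuRS, puc had 1.17, 1.07 and 0.69 on the Kc167-Cy5 arrays and -0.14, 0.35 and 0.24 on the flipped arrays.

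The synthetase genes lie on the arms 3L (TyrRS, TrpRS-m, IleRS and LeuRS-m), 2L (LeuRS) and 2R (CysRS), and their measured neighbours had ratios of both signs. Next to TyrRS lies CG33158, with no gene between them, and it was on the same side with 0.30 ± 0.07 (limma adjusted p = 0.0031), while roq, on the other side with 8 genes between, had -0.10 ± 0.07. The nearest measured neighbours of LeuRS-m had 20 and 10 genes between: CG32236 had 0.17 ± 0.07, on the opposite side, and CG17030 had -0.16 ± 0.07 and did not pass. Those of LeuRS were Pif1 (0.06 ± 0.07), with 12 genes between, and CG3213 (-0.09 ± 0.07), with 1, and neither passed. Those of IleRS were Rich (-0.16 ± 0.08), with 7 genes between, and CG32450 (0.16 ± 0.07), with 1, and neither passed. CysRS had spin (-0.67 ± 0.07), which passed on the Kc167 side, with 2 genes between, and sotv (-0.27 ± 0.11), with no gene between, which did not. TrpRS-m had CG7408 (1.14 ± 0.07), with 4 genes between, and Ccn (-0.49 ± 0.08), with 29, which passed on opposite sides.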

How the data were processed

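The authors deposited 1 log ratio per spot and array, used here as log2; per the labels, QuantArray version 3 quantified the scanned spots, no background was subtracted, and the ratios are of normalised data. The normalisation method is not given in the sources used here. Intensities were not used, so no filter on dim spots was possible, and precision rests on the number of arrays. Of 16896 spots, 15104 to 16844 had a value on an array, and their medians lay between -0.024 and 0.002.

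Both spots of a clone, then the clones of a gene, were averaged (7581 of 8448 clones had values on all 6 arrays). Symbols came from the platform annotation, updated by Entrez identifier through the RefSeq table of the Release 6 assembly, used for names, arms and gene order only. The 3 replicate means entered limma 3.58.1 (lmFit, eBayes; R 4.3.3) as a two-sided test of 0, and p-values were adjusted by Benjamini-Hochberg across the 7201 features. Orientations were compared as 3 arrays against 3. SE is limma's moderated standard error. Both tests were first tested on simulated data. Figures were drawn with matplotlib 3.10.9.

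The synthetase genes and the lists (tRNA charging partners, tRNA processing and modification, elongation and release, mitochondrial protein synthesis, amino acid transport, amino acid sensing, leucine, isoleucine and tyrosine metabolism, and 5 marker lists) were chosen with earlier results of these data known. Named genes were all synthetase genes, up to 3 called genes per pathway list (not the marker lists) with the largest ratios, the 2 genes most like each synthetase gene, and the nearest measured neighbour on each side; listed genes that did not pass, the marker genes, and further sensing genes fall outside this rule, chosen with values in view. Alternatives varied the pairing, dye orientation, normalisation, spots, clones, missing values, variance model and left-out arrays.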

Additional observations from a re-analysis of the deposited data

Results flagged for a closer look

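The gap between the dye orientations of LeuRS was 0.82 (Kc167-Cy5 arrays minus flipped arrays), and that of CysRS was 0.58; both passed limma's test of the orientations. For CysRS every Kc167-Cy5 array was above 0 and every flipped array below 0, so the sign of its line ratio changed with the orientation. Dye and scan setting both changed with the orientation. For LeuRS the means were 1.0 and 0.18, of the same sign. The cause was not tested.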

How the results depend on the processing

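Between 3 and 5 synthetase genes differed between the lines under the 20 alternatives, against 4 as reported. The count was 3 in the flipped arrays alone, where 50.8% of all features passed. It was also 3 without pooling of variance between features, where 26.7% of all features passed. Under the other alternatives 51.6% to 61.2% passed, against 60.2% as reported. TyrRS (0.71 to 0.87), IleRS (-0.61 to -0.42) and LeuRS-m (-1.51 to -1.16) passed with 1 sign under all 20. LeuRS passed under 18, with 2 exceptions: the flipped arrays alone (0.18) and no pooling of variance between features (0.59, limma fit without moderation, adjusted p = 0.13). CysRS turned to -0.25 in the flipped arrays alone, to -0.00072 with the first spots, and ran from -0.0092 to 0.14 with 1 replicate left out (below 0 without replicate 2 and without replicate 3). The fifth gene was CysRS in the Kc167-Cy5 arrays alone and TrpRS-m with every clone tested alone, where the clone with the lowest p stood for the gene.

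With the replicate number as a block, 4 genes differed between the lines and 2 between the orientations, against 59.4% and 9.46% of all features. They were the same genes as without the block. The deviations of same-numbered arrays correlated at -0.07, 0.11 and -0.10, and those of different-numbered arrays at -0.18 to 0.20. Deviations sum to 0 within each orientation, so these values depend on each other. Those of same-numbered arrays lay within the range of the rest and gave no sign of shared RNA. The pairing by number therefore has no support in these values. The count of genes that differed between the orientations was 2 with median centring, quantile normalisation or single clones, where 11.8% to 13.7% of all features passed. It was 0 by limma without pooling of variance (4 at an unadjusted p under 0.05), where 0.04% of all features passed against 12.2% in the main test. It was 0 without the flipped array of replicate 1 (3 unadjusted), where 4.11% of all features passed. It was also 0 when any 1 replicate was left out (2 or 3 unadjusted), where 0.68% to 3.72% of all features passed. Fewer arrays were tested in these settings with arrays left out. The gaps of LeuRS and CysRS were 0.60 and 0.49 without that array, and 0.67 to 0.93 and 0.48 to 0.67 with 1 replicate left out. Orientation gaps of genes that did not pass turned for IleRS to -0.0023 without that array and for TrpRS-m to 0.018 with centring, 0.027 with quantile normalisation and 0.076 without that array. With 1 replicate left out they ran from -0.11 to 0.39 for IleRS and from -0.080 to 0.11 for TrpRS-m, turning without replicate 1. LeuRS minus LeuRS-m was 2.51 in the Kc167-Cy5 arrays and 1.34 in the flipped arrays, and 1.80 to 2.06 with 1 replicate left out. Read as natural logarithms, 2 genes (TyrRS, 2.20-fold, and LeuRS-m, 3.80-fold) in place of 1 differed at least 2-fold, against 14.1% of all features. Without intensities, no gene's signal over background is known.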
